A study of Mus musculus with 18 samples.

Results

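Spermatogonia are the diploid germ cells at the base of the seminiferous tubule. A small stem cell pool, held by GDNF from Sertoli cells acting on RET and its co-receptor GFRA1, gives rise to differentiating spermatogonia that carry the receptor KIT and respond to retinoic acid, enter meiosis as spermatocytes and become haploid round spermatids (RS). The levels of 8 marker genes of these early cells, Zbtb16, Gfra1, Kit, Stra8, Dmrt1, Sohlh1, Uchl1 and Id4, were examined here in RS fractions as a measure of early germ cell RNA. The genes are a list of names, with no threshold on a measured value, and the list was drawn up with earlier results of these data known. They are 8 of the 54232 genes in the count table, and all 8 passed the filter on low counts, which 21058 genes passed.

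RS were isolated from testes of mice 75 to 85 days old by sedimentation of a germ cell suspension, after a collagenase step meant to remove Leydig cells, and RNA was sequenced without polyA selection. WT, GRTH KO and GRTH KI mice gave 6 libraries each. GRTH is the RNA helicase encoded by Ddx25. KO mice lack the gene product. KI mice carry a human GRTH gene with a missense mutation and lack the phosphorylated protein, and mice of both mutant genotypes are sterile with RS that do not elongate. The labels name no Cre, transgene driver or treatment. Whether the replicates come from separate animals is not stated in the labels, so the p-values may measure only the spread between preparations.

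Each library held 18766971 to 26776555 counts assigned to genes. Levels are given as normalized CPM, counts scaled to the size of the library, and 3 counts, taken as the floor, correspond to between 0.112 and 0.160 CPM. These floors cover counting error only, since amplified reads are not independent molecules. Ddx25 lay between 538 and 607 CPM in WT and between 47.7 and 90.9 CPM in KO. It lay between 0.0456 and 0.519 CPM in 5 KI libraries but at 56.9 CPM in the library labelled KI 4, inside the KO range. That library goes against its label, and the change of each member in KI is therefore given with and without it. Of 50 genes of the other lists described here that were called in KI, 45 were also called without it, and the 5 that were not are named where their list is described. The library labelled KI 4 was also nearest to KO 2 of all pairs of libraries, with squared differences in counts 1.59 times those of counting noise. The other close pairs each lay within a genotype, at 2.05 to 3.24 times on this squared scale. They were libraries 4 and 5 of KO, libraries 1 with 2 and 3 with 5 of KI, and libraries 1 with 2, 3 with 4 and 5 with 6 of WT. Every other pair was at 4.73 times or more. Libraries of these pairs may not be independent. The study checked the purity of the fractions by DAPI staining. The summed level of 12 RS markers had a median of 1921 CPM in WT, 1479 CPM in KO and 1343 CPM in KI. The summed level of 16 spermatocyte markers had medians of 1683, 1734 and 1690 CPM. RNA of the genes of both lists was thus abundant in every genotype, and which cells it came from was not tested.

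The members lie on 6 chromosomes of GRCm38. Zbtb16 (ENSMUSG00000066687, chromosome 9, 48654297 to 48836222, minus strand) encodes PLZF, a transcriptional repressor that maintains the stem cell pool. It lies on the same chromosome as Ddx25, 13.1 Mb away. Gfra1 (ENSMUSG00000025089, chromosome 19, 58235604 to 58455909, minus strand) encodes the GDNF co-receptor. Id4 (ENSMUSG00000021379, chromosome 13, 48261228 to 48266026, plus strand) encodes an inhibitor of basic helix-loop-helix (bHLH) factors that marks stem cells. Uchl1 (ENSMUSG00000029223, chromosome 5, 66676091 to 66687234, plus strand) encodes a deubiquitinating enzyme used as a marker of spermatogonia. Dmrt1 (ENSMUSG00000024837, chromosome 19, 25505618 to 25604329, plus strand) encodes a transcription factor that governs the switch from mitosis to meiosis. Sohlh1 (ENSMUSG00000059625, chromosome 2, 25842995 to 25847248, minus strand) encodes a bHLH factor needed for differentiation. Kit (ENSMUSG00000005672, chromosome 5, 75574916 to 75656722, plus strand) encodes the stem cell factor receptor. Stra8 (ENSMUSG00000029848, chromosome 6, 34920163 to 34939344, plus strand) encodes a retinoic acid induced factor needed for entry into meiosis. The exons of no other gene overlap theirs on the same strand. Antisense genes overlap exons of Gfra1, Uchl1 and Id4, and the counting used strand. Not all of this RNA is particular to spermatogonia. Stra8 is also made in the earliest spermatocytes, Dmrt1 in Sertoli cells and Kit in Leydig cells, and spermatids make a truncated Kit transcript from within the gene, which counts over the whole gene do not tell apart. Across libraries, Id4 did not follow Zbtb16, Kit, Stra8, Dmrt1, Sohlh1 and Uchl1 (below), and which cells its RNA came from was not tested.

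RefSeq promoters (GRCm38.p6, 250 bases before to 50 after the start) were found for 6 of the 8 genes, not for Zbtb16 or Dmrt1. The promoters of the 3 genes called in KO and that of Sohlh1, the only other member promoter to hold any of 3 searched motifs, are printed 5′ to 3′ with the letters of these motifs in capitals. The motifs, read on both strands, were AGGTCA, the core of retinoic acid receptor sites, CACGTG, an E-box of the kind bHLH factors bind, and ACATTGT, the core of the DMRT1 motif.
Stra8, chr6:34920698-34920997, plus strand: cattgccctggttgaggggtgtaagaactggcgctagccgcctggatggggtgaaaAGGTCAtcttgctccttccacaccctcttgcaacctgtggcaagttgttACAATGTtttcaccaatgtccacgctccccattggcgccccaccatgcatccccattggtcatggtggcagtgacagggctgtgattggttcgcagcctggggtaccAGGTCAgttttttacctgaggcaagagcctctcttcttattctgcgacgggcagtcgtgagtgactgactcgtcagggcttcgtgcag
Kit, chr5:75574737-75575036, plus strand: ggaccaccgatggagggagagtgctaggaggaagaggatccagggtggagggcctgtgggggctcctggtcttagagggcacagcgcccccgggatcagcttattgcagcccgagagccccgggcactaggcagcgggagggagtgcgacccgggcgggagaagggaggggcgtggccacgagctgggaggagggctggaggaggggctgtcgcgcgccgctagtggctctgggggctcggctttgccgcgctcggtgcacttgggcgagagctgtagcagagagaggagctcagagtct
Id4, chr13:48260866-48261165, plus strand: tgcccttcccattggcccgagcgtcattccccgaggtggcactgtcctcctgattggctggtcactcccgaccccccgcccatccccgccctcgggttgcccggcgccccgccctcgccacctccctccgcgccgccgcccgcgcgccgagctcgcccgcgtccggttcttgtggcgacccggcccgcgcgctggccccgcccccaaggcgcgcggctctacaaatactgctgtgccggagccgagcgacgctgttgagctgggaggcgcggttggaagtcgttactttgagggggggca
Sohlh1, chr2:25847199-25847498, minus strand: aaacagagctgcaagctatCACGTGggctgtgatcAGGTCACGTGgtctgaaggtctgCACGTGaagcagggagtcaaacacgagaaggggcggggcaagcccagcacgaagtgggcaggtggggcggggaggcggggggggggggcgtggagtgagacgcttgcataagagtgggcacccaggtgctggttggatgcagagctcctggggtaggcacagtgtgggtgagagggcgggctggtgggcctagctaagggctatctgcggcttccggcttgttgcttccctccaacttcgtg
The Stra8 promoter held AGGTCA 2 times, from positions -194 and -38 relative to the start, and ACATTGT 1 time, from -145. The RefSeq start used here lies inside the longer GENCODE gene. The Sohlh1 promoter held CACGTG 3 times, from -231, -211 and -192, and AGGTCA 1 time, from -215, where it overlaps the second of these. The Kit, Id4, Uchl1 and Gfra1 promoters held none of the 3. Of all 32851 promoters of this length in the table, 16.3% held AGGTCA, 7.15% held CACGTG and 2.96% held ACATTGT. The looser E-box CANNTG, which takes in every CACGTG, was found in 72.3% of promoters and in those of Gfra1, Kit and Sohlh1. A match describes the letters and is not evidence of binding.

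In WT fractions the levels of the 8 genes spread from low to above the middle of all genes tested. Per kilobase (kb) of exon, which allows genes to be compared, the mean level was 6.97 ± 0.989 CPM for Id4 and 5.91 ± 0.666 CPM for Uchl1 (SD, n = 6). It was 2.62 ± 0.348 for Dmrt1, 2.37 ± 0.294 for Stra8 and 0.919 ± 0.181 for Kit. Sohlh1, Zbtb16 and Gfra1 followed at 0.606 ± 0.134, 0.465 ± 0.0523 and 0.374 ± 0.0917 CPM per kb. Id4, Uchl1, Dmrt1 and Stra8 stood at the 70.6th, 67.7th, 52.3rd and 50.1st percentiles of all genes tested, and the other 4 between the 17.3rd (Gfra1) and the 32.2nd (Kit). Of neighbours in this order, only Uchl1 and Dmrt1, and Stra8 and Kit, had WT libraries that did not overlap. In KO and KI Stra8 stood above Dmrt1, at 5.54 ± 1.98 against 3.30 ± 1.09 CPM per kb in KO and 3.87 ± 1.95 against 2.58 ± 1.36 in KI (SD, n = 6), and the libraries of all neighbours overlapped in both genotypes. The difference of the means exceeded the larger SD of the pair in KO (2.24 against 1.98) and not in KI (1.29 against 1.95). Without the library labelled KI 4, Stra8 stood at 3.20 ± 1.17 and Dmrt1 at 2.09 ± 0.694 CPM per kb in KI (SD, n = 5), Zbtb16 came before Sohlh1, and the libraries of Id4 and Uchl1, and of Dmrt1 and Kit, did not overlap.

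**Figure D1:**
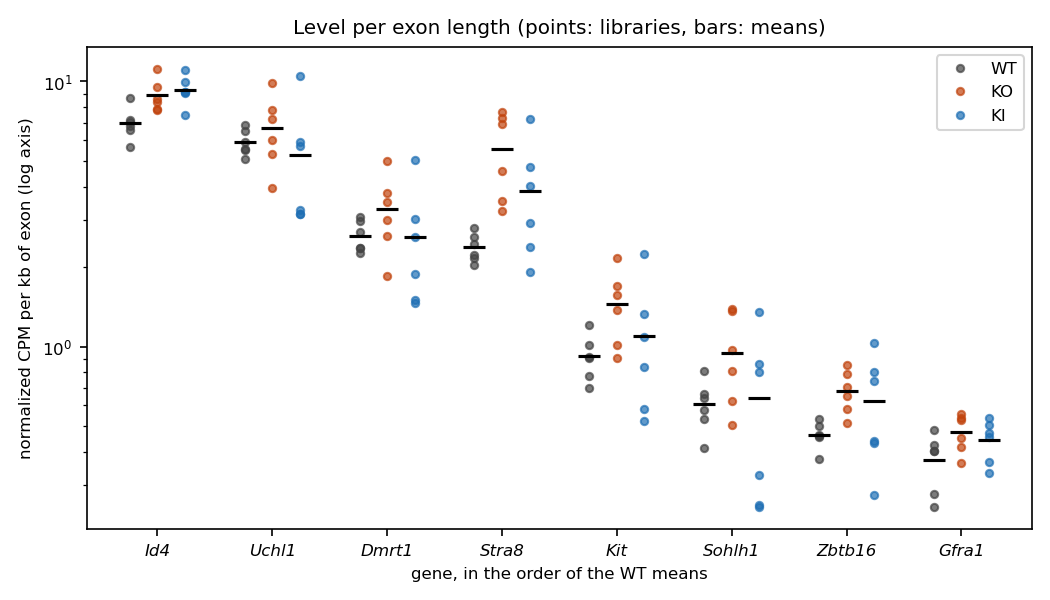
Level of each gene per kilobase of exon in WT, KO and KI, in normalized CPM on a log axis, with 1 point per library (6 per genotype) and a bar at each mean. Id4 and Uchl1 are highest and Gfra1 lowest in WT, and Stra8 lies above Dmrt1 in KO and KI but not in WT.

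Compared to WT, 3 of the 8 genes were higher in KO, Stra8, Kit and Id4, and 0 were lower, by edgeR's quasi-likelihood test for a change of any amount at a Benjamini-Hochberg adjusted p under 0.1. The log2 fold change was above 0 for all 8, with a median of 0.45, while the median over all genes tested was 0.03. Over all genes tested, 16.4% were called higher in KO and 13.5% lower. Past 1 log2 unit (edgeR's glmTreat) the call was made for none of the members and for 1.73% of genes, and 4 had an unadjusted p under 0.05 for any amount. Without the library labelled KI 4 in the fit, Zbtb16 was called higher in KO as well, and 16.8% of all genes were called higher. The count of 3 fell to 1, Stra8, without KO 3. It was also 1 when the close libraries within a genotype were summed, where the share of all genes called higher fell to 8.11%. In a bulk fraction, more cells of a type and more of its RNA per cell cannot be told apart. Levels are also relative to the rest of the library. The 8 genes of elongating spermatids summed to a mean of 3410 CPM in KO, against 18052 CPM in WT. How far this difference raised the share of other genes, after scaling, was not tested.

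Stra8 changed the most. Its level in WT was lowest at 3.65, at the median 4.19 and highest at 5.06 CPM. In KO it ran from 5.84 over a median of 10.4 to 13.8 CPM. All 6 KO libraries were above all WT libraries, which was so for 6.62% of the genes tested, and KO 2, KO 4 and KO 5 stood above 12 CPM. The level was 2.34-fold that of WT (log2 fold change 1.23, standard error 0.27, adjusted p = 0.00208, edgeR) and the call held in all 18 fits that left out a library.

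Kit ranged from 6.20 over a median of 8.11 to 10.8 CPM in WT. In KO it ranged from 8.05 over 13.1 to 19.2 CPM. The genotypes overlapped, with 4 of 6 KO libraries above every WT library. The rise was 1.58-fold (log2 fold change 0.66, standard error 0.28, adjusted p = 0.0949, edgeR) and held in only 7 of the 18 fits without a library, with adjusted p of 0.0390 to 0.233. The lowest of these was without the library labelled KI 4. When close libraries were summed the log2 fold change was as large, 0.66, but with a standard error of 0.36 it was not called (adjusted p = 0.286, edgeR).

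Id4, the most abundant member, ranged from 21.7 over a median of 26.6 to 33.4 CPM in WT. In KO it ranged from 29.9 over 32.6 to 42.9 CPM. The genotypes overlapped and 2 of 6 KO libraries, KO 3 and KO 6, lay above every WT library. The rise was 1.27-fold (log2 fold change 0.35, standard error 0.12, adjusted p = 0.0395, edgeR) and was called in 16 of 18 fits without a library. When close libraries were summed the log2 fold change was 0.37, with a standard error of 0.17, and was not called (adjusted p = 0.181, edgeR).

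The other 5 genes did not pass the test in KO. Zbtb16, at 1.99 to 2.81 CPM in WT and 2.73 to 4.497 in KO (medians 2.43 and 3.57), missed it narrowly, with 5 of 6 KO libraries above every WT library (log2 fold change 0.55, standard error 0.24, adjusted p = 0.103, edgeR). With the library labelled KI 4 left out of the fit it was called (standard error 0.21, adjusted p = 0.0660, edgeR). On all 18 libraries DESeq2 also called it (log2 fold change 0.53, standard error 0.24, adjusted p = 0.0949, DESeq2). Of the 18 fits without a library, 5 called it. The value of Gfra1 was 0.35 (standard error 0.19) and its levels, 1.36 to 2.65 CPM in WT and 1.99 to 3.05 in KO, overlapped. Sohlh1 had the lowest levels, 0.533 to 1.04 CPM in WT and 0.654 to 1.79 in KO on 11 to 41 counts, and the least precise log2 fold change, 0.63 (standard error 0.36, 95% interval -0.12 to 1.39). The values of Dmrt1 and Uchl1 were 0.34 (standard error 0.26) and 0.18 (standard error 0.26). In KO 1 both genes lay below every WT library, at 4.80 CPM for Dmrt1 against at least 5.85 in WT and 6.49 CPM for Uchl1 against at least 8.29. In KO 2 both lay above every WT library, at 13.1 and 16.1 CPM.

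**Figure D2:**
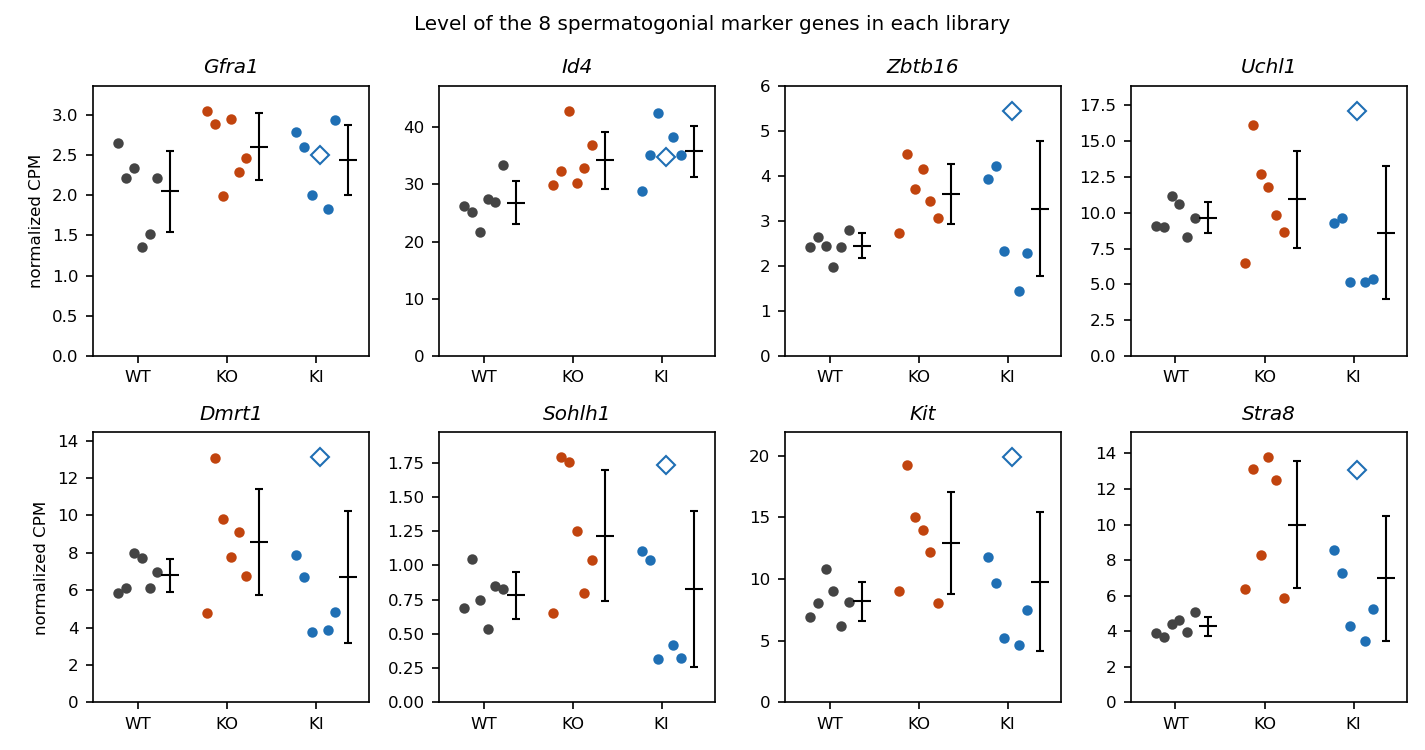
Normalized CPM of each gene in every library, 6 per genotype, with the mean and SD as a bar beside the points and the library labelled KI 4 as an open diamond (each axis starts at 0). All KO libraries lie above WT for Stra8, and the open diamond is the highest KI point for 6 of the 8 genes.

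In KI compared to WT, 2 genes were called higher, Stra8 and Id4, and 0 lower, where 16.1% of all genes tested were called higher and 15.4% lower. Of all genes, 5.97% lay higher in every KI library than in every WT library, and none of the 8 did. No member passed the test against 1 log2 unit, which 1.95% of genes passed. KO and KI were set against the same WT libraries, so the comparisons are not independent. Without the library labelled KI 4, only Id4 was called, and 14.5% of all genes were called higher.

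Stra8 ranged in KI from 3.46 over a median of 6.26 to 13.04 CPM. KI 3 and KI 5 lay among the WT libraries at 4.29 CPM and below them at 3.46 CPM, and the other 4 lay above them. The level was 1.64-fold that of WT (log2 fold change 0.71, standard error 0.27, adjusted p = 0.0621, edgeR). Without the library labelled KI 4, itself at 13.04 CPM, the log2 fold change was 0.44 (standard error 0.25, adjusted p = 0.221, edgeR), and the call was lost.

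Id4 ranged in KI from 28.9 over a median of 35.1 to 42.5 CPM, and 5 of 6 libraries lay above every WT library. The rise was 1.33-fold (log2 fold change 0.42, standard error 0.12, adjusted p = 0.0143, edgeR). It was as large without the library labelled KI 4 (log2 fold change 0.42, standard error 0.13, adjusted p = 0.0205, edgeR), and it passed in all 18 fits without a library. When close libraries were summed the log2 fold change was 0.43, with a standard error of 0.18, and was not called (adjusted p = 0.140, edgeR).

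The remaining members other than Gfra1 had KI libraries both below and above every WT library. Kit lay between 4.67 and 19.9 CPM in KI, with KI 3 and KI 5 below every WT library and KI 1 and the library labelled KI 4 above. Its log2 fold change was 0.26 (standard error 0.28) and became -0.07 (standard error 0.24) without the library labelled KI 4. Uchl1 was at 5.14 to 5.35 CPM in KI 3, KI 5 and KI 6, below every WT library, at 9.32 and 9.62 CPM in KI 1 and KI 2, and at 17.1 CPM in the library labelled KI 4. Its value was -0.16 (standard error 0.26), and -0.48 (standard error 0.21, adjusted p = 0.116, edgeR) without that library. For Dmrt1 the values were -0.02 with and -0.32 without it, and for Sohlh1 0.08 and -0.28. Zbtb16 had 0.42 (standard error 0.24) with and 0.22 (standard error 0.23) without it, and Gfra1 0.25 (standard error 0.19) with and 0.25 (standard error 0.20) without it.

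**Figure D3:**
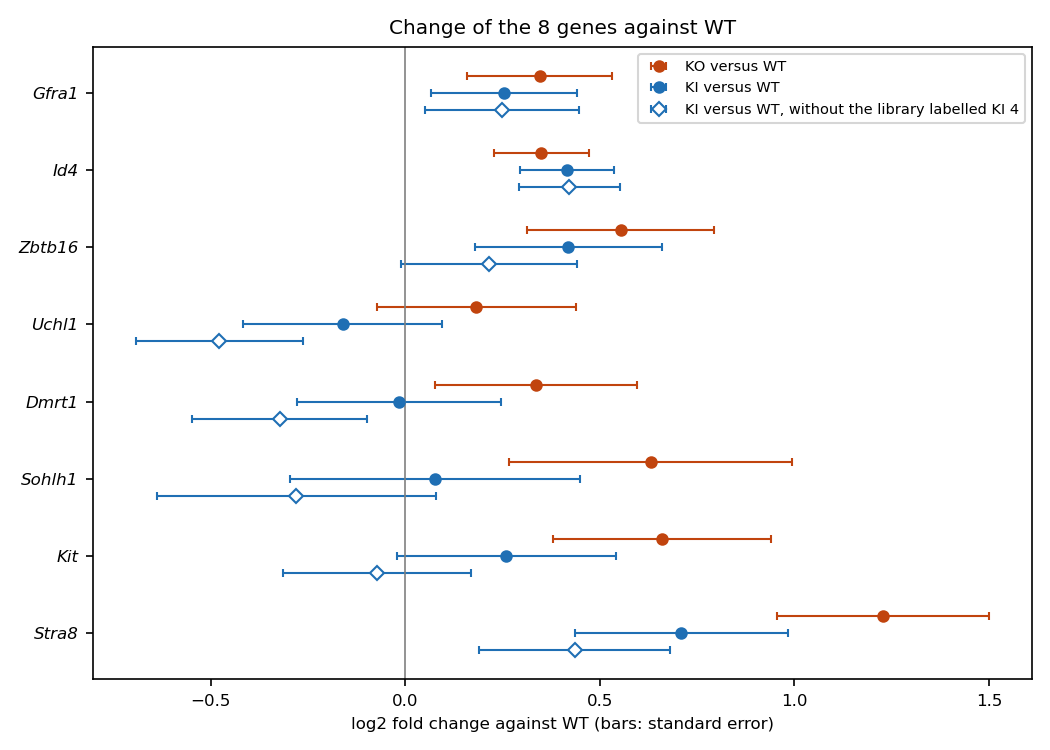
Log2 fold change against WT for each gene in KO, in KI and in KI without the library labelled KI 4 (open diamonds), with bars for the standard error. In KO all 8 points are above 0, and without that library 4 of the KI points, Kit, Sohlh1, Dmrt1 and Uchl1, are below 0.

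Between KI and KO no member was called. With the library labelled KI 4 among the KI libraries, the genes called higher or lower numbered 0 and 0 (edgeR). The smallest adjusted p was then 0.961 (edgeR), 0 had an unadjusted p under 0.05 and DESeq2 also called 0. In the same fit, 0.076% of all genes tested were called higher in KI and 0.0237% lower, and 0.00475% passed 1 log2 unit. The count at an unadjusted p and these shares are not given for the fit without that library. For 7 of the 8 genes the log2 fold change was below 0. The intervals leave room for differences: for Stra8 the value was -0.52 (95% interval -1.07 to 0.03), for Kit -0.40 (95% interval -0.98 to 0.18) and for Id4 0.06 (95% interval -0.19 to 0.32). Without the library labelled KI 4 the values for Stra8 and Kit were -0.79 (standard error 0.24, adjusted p = 0.258, edgeR) and -0.73 (standard error 0.24, adjusted p = 0.305, edgeR). Those of Sohlh1, Dmrt1 and Uchl1 were then -0.91 (standard error 0.35), -0.66 (standard error 0.22) and -0.66 (standard error 0.21). With that library they were -0.55, -0.35 and -0.34, so all of these values lay further below 0 without it. Zbtb16, Gfra1 and Id4 had -0.34, -0.10 and 0.07, and no member was called.

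The members varied more between libraries of KO and KI than within WT. The median coefficient of variation over the 8 genes was 13.8% in WT, 31.3% in KO and 51.6% in KI. Among the 12123 genes with mean levels in the same range it was 19.6%, 20.6% and 25.1%. Id4 was the exception, at 14.2%, 14.4% and 12.5%, and Gfra1 had 24.5%, 16.2% and 17.9%. Without the library labelled KI 4 the median in KI was 35.2%, against 23.1% among genes in the same range, and the other 6 genes had 33.2% to 61.5%.

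This spread was shared by 6 genes, Zbtb16, Kit, Stra8, Dmrt1, Sohlh1 and Uchl1. The library labelled KI 4 was the highest of all 18 for Zbtb16, Kit, Dmrt1 and Uchl1, and KO 2 was the highest for Sohlh1. KI 5 was the lowest of 18 for Zbtb16, Kit, Stra8 and Uchl1, and KI 3 for Dmrt1 and Sohlh1. The summed level of the members other than Id4 was 72.9 CPM in the library labelled KI 4 and 70.6 CPM in KO 2. It was 45.3, 41.2 and 28.5 CPM in KI 1, KI 2 and KI 6, and 23.1 and 20.8 CPM in KI 3 and KI 5. In KO it was 33.1, 53.4, 55.7, 50.2 and 35.9 CPM in libraries 1, 3, 4, 5 and 6, and in WT it lay between 29.4 and 39.9 CPM. The lowest sums were thus in KI 5 and KI 3 and the highest in the library labelled KI 4 and in KO 2, and WT had the narrowest range, also without the library labelled KI 4. With genotype means subtracted, log2 levels of these 6 genes correlated with each other at Pearson r of 0.666 to 0.965 over the 18 libraries, with Dmrt1 and Uchl1 the closest. Their r with Id4 was -0.331 to -0.134 and with Gfra1 0.0829 to 0.381, and that between Gfra1 and Id4 was -0.530. With the library labelled KI 4 left out, the r among the 6 were 0.515 to 0.942. These r are descriptions, since libraries of the close pairs named above may not be independent.

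**Figure D4:**
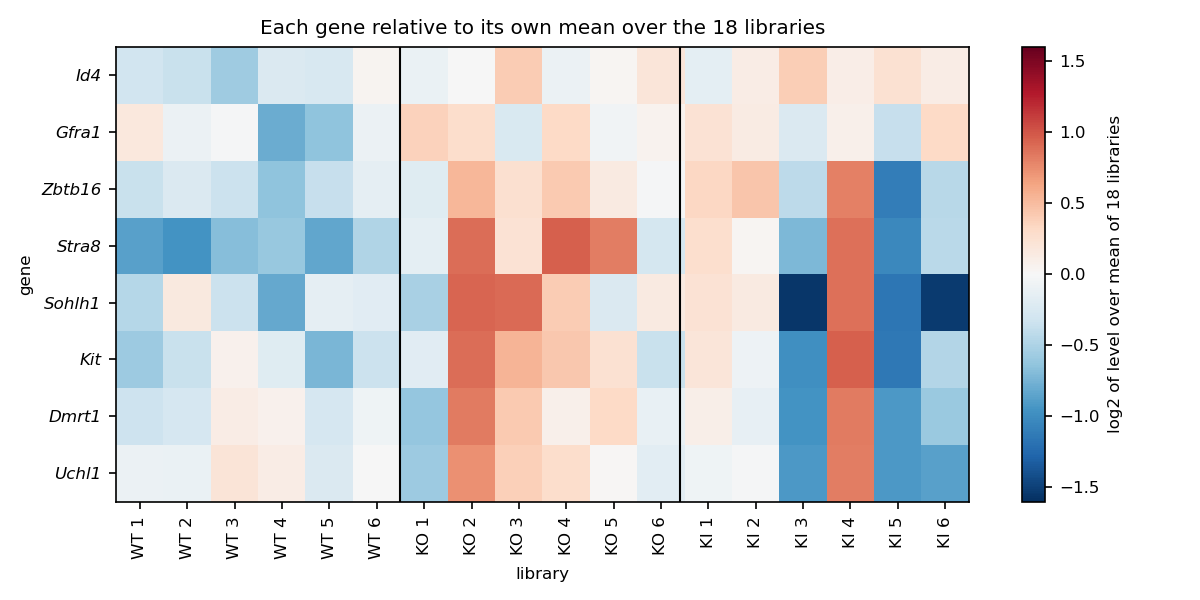
Log2 of the level of each gene (rows) in each of the 18 libraries (columns) over the gene's own mean, with lines between WT, KO and KI. The lower 6 rows are high together in KO 2 and in the library labelled KI 4 and low together in KI 3, KI 5 and KI 6, and the rows of Id4 and Gfra1 do not follow them.

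Across all 18 libraries, the genes whose log2 levels were most like those of a member were taken by Pearson r, with no test. Kit was most like Hist1h4d (r = 0.979), Cul7 (0.973) and Hist1h4k (0.963), and Uchl1 was most like Hist3h2ba (0.972), Dmrt1 (0.959) and Marcksl1 (0.957). Dmrt1 was most like Hist3h2ba (0.963), Uchl1 (0.959) and Lonrf3 (0.954). Histone genes thus headed the lists of 3 members. Stra8 was most like Dazl (0.966), which encodes a germ cell RNA-binding protein, Ammecr1 (0.956) and Gm15262 (0.946). Zbtb16 was most like Tex19.1 (0.943), Bhlhb9 (0.934) and Cad (0.933), and Sohlh1 was most like Cdt1 (0.902), Hdac6 (0.882) and Uchl1 (0.871). Id4 had other neighbours, Ikzf5 (0.954), Wdr82 (0.95) and Dhx9 (0.948), and Gfra1 had none above 0.809, with Pbx3 (0.809), Kif13a (0.803) and Ubash3b (0.795).

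Other genes of undifferentiated spermatogonia were read from a list of 22, of which 14 passed the filter. In KO 6 were called higher and 0 lower, against 16.4% of all genes called higher. In KI 3 were called higher and 1 lower, also without the library labelled KI 4, against 16.1% of all genes called higher (14.5% without that library), so the share in KI was near that of all genes. With close libraries summed 16 genes of the list were tested and 3 were higher in KO, against 8.11% of all genes. The median log2 fold change was 0.51 in KO and 0.36 in KI. Adgra3, which encodes an adhesion receptor, rose most clearly, from 4.601 ± 0.376 CPM in WT to 13.1 ± 2.09 in KO and 10.2 ± 3.09 in KI (SD, n = 6), with adjusted p = 1.16e-06 and 3.53e-05 (edgeR). Lin28a, which encodes an RNA-binding repressor of let-7 maturation, rose from 1.34 ± 0.204 CPM to 3.83 ± 0.698 and 3.63 ± 1.29 (SD, n = 6; adjusted p = 2.65e-05 and 4.03e-05, edgeR). Bcl6b, a GDNF-regulated repressor, rose with log2 fold changes of 0.46 and 0.37 in the mutant genotypes (adjusted p = 0.0133 and 0.0394, edgeR). Lhx1, another GDNF-responsive gene, went the other way, with -0.95 in KI (adjusted p = 0.00655, edgeR) and -0.55 in KO (adjusted p = 0.107, edgeR). Taf4b, the most abundant per kb of those that passed, had 0.18 and -0.11. The 8 that did not pass, among them the stem cell markers Nanos2, Pax7, Eomes and Neurog3, had genotype means of at most 0.393 CPM.

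Other genes of differentiating spermatogonia and of the response to retinoic acid numbered 16, and 15 passed the filter. In KO 7 were called higher and 0 lower, against 16.4% of all genes called higher, with a median log2 fold change of 0.37. In KI 4 were called higher and 0 lower, with a median of 0.33, and 3 without the library labelled KI 4, where Gm4969 was not called. The shares of all genes called higher in KI were 16.1% and, without that library, 14.5%. With close libraries summed 5 were higher in KO and 3 in KI, against 8.11% and 7.02% of all genes. Rara, the gene of retinoic acid receptor alpha, rose from 8.48 ± 0.894 CPM in WT to 13.8 ± 1.59 in KO and 14.7 ± 2.20 in KI (SD, n = 6; adjusted p = 0.000167 and 3.50e-05, edgeR). Ccnd2, the gene of cyclin D2, rose with log2 fold changes of 1.36 and 1.13 (adjusted p = 0.000997 and 0.00461, edgeR). Nxf2, an RNA export factor gene, rose with 0.73 and 0.62 (adjusted p = 0.00471 and 0.0135, edgeR), and Gm4969 with 1.06 and 0.53 (adjusted p = 0.000521 and 0.0636, edgeR). Dmrtb1, Aldh1a2 and Rec8, the 3 most abundant per kb, did not pass, with values of 0.11, 0.37 and 0.15 in KO. Dmrtb1 and Rec8 transcripts continue into meiosis.

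**Figure D5:**
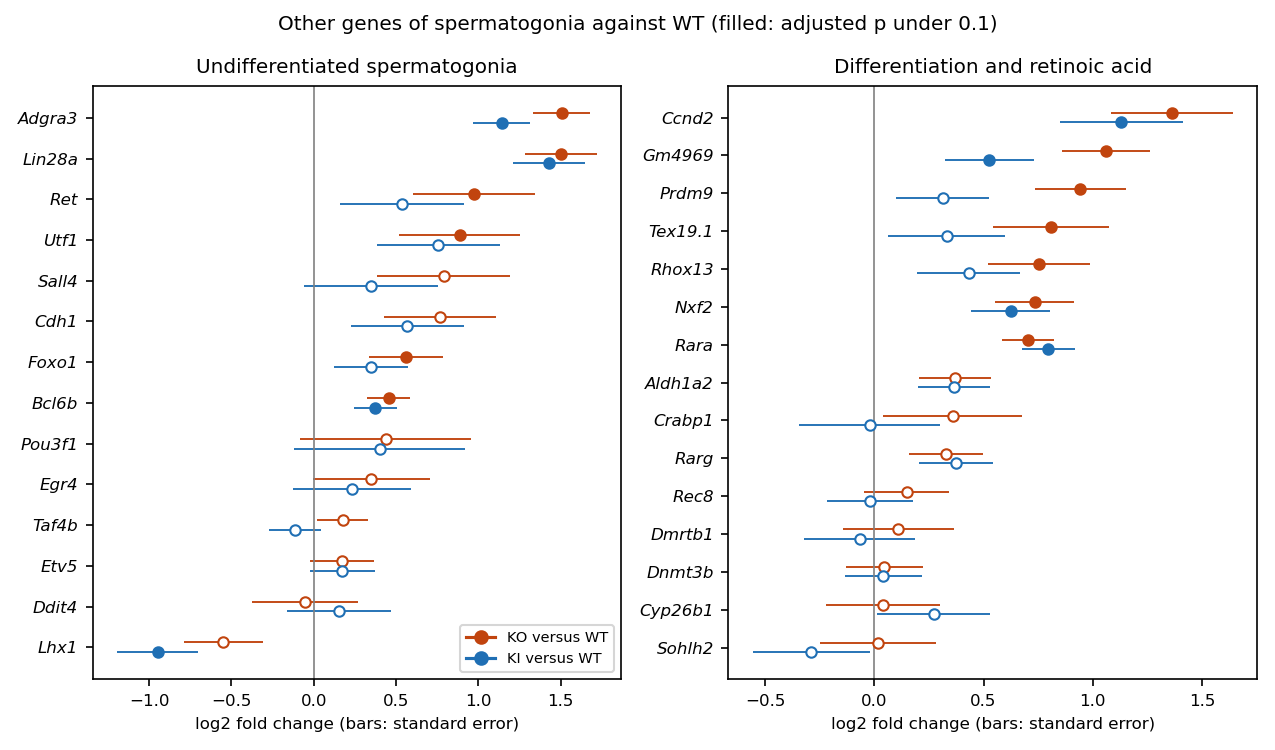
Log2 fold change against WT in KO and KI for the 14 genes of undifferentiated spermatogonia and the 15 of differentiation and retinoic acid that passed the filter, with bars for the standard error and filled points for adjusted p under 0.1. Filled points lie to the right of 0 except that of Lhx1 in KI.

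Ligands and receptors of the GDNF and KIT pathways and of the FGF, CSF1 and LIF signals of the niche made a list of 12, which includes Gfra1 and Kit and shares Ret with the first list. Of the 10 that passed, 6 were called higher and 1 lower in KO, and 5 higher and 0 lower in KI, the latter also without the library labelled KI 4. Over all genes, 16.4% were called higher and 13.5% lower in KO, and 16.1% and 15.4% in KI. With close libraries summed the higher calls numbered 2 in KO and 3 in KI, where 8.11% and 7.02% of all genes were called higher. Fgfr3, a receptor present on undifferentiated spermatogonia, had log2 fold changes of 0.77 and 0.67 (adjusted p = 0.00704 and 0.0156, edgeR), and Fgfr1 0.75 and 0.54 (adjusted p = 0.00439 and 0.0347, edgeR). Csf1r, which also marks macrophages, had 0.72 and 1.24 (adjusted p = 0.0491 and 0.000972, edgeR), and its ligand gene Csf1 had 0.89 and 1.22 (adjusted p = 0.0982 and 0.0187, edgeR). Lifr, the most abundant of the list, had 0.28 and 0.42 (adjusted p = 0.152 and 0.0283, edgeR). Gdnf itself did not pass the filter, on 0 to 14 counts per library. Its mean was 0.275 CPM in WT. In KO and KI the means, 0.0823 and 0.0702 CPM, lay below the floor of 3 counts, so no change is read from them.

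Transcripts of Leydig cells were also higher in both mutant genotypes. Each of the 8 Leydig markers was called higher in both, with median log2 fold changes of 1.95 in KO and 1.84 in KI, Cyp17a1, which encodes a steroidogenic enzyme, from a mean of 3.49 CPM to 14.9 and 12.9 CPM (log2 fold changes 2.09 and 1.89, standard error 0.44 for each, adjusted p = 0.00125 and 0.00266, edgeR). Lhcgr did not pass the filter without the library labelled KI 4, and the other 7 were then called higher in KI, with a median of 1.66. The steroidogenic genes Star (0.72 and 0.63), Cyp11a1 (2.23 and 2.04) and Hsd3b6 (1.77 and 1.59) and the hormone gene Insl3 (1.94 and 1.64) were among them. The summed Leydig level was 11.04 to 23.3 CPM in WT, 35.0 to 61.5 in KO and 14.9 to 78.0 in KI. Within KI it was 53.9, 78.0 and 58.2 CPM in KI 1, KI 2 and the library labelled KI 4 and 19.7, 14.9 and 21.5 CPM in KI 3, KI 5 and KI 6, the libraries in which Uchl1 and Dmrt1 lay below every WT library. Of 12 Sertoli markers, 11 passed, and 0 were higher and 3 lower in KO and 1 higher and 2 lower in KI. For these and the Leydig counts, the shares of all genes called higher and lower were 16.4% and 13.5% in KO and 16.1% and 15.4% in KI. Wt1 and Inha were lower in both (-0.62 and -0.78, and -0.58 and -0.66), Aard, the most abundant per kb, was lower in KO (-0.65) and, without the library labelled KI 4, also in KI (-0.59), and Dhh was higher in KI (0.48). Clu and Rhox5 were not called. The summed Sertoli level was 23.2 to 39.8 CPM in WT, 18.4 to 35.7 in KO and 23.4 to 35.3 in KI, highest among mutants in KO 2 and the library labelled KI 4. No Leydig or Sertoli marker was at 0 in every library of a genotype. Their part in the levels of the members was not tested.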

How the data were processed

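Gene expression was measured by strand-specific mRNA-seq in RS of WT, KO and KI mice. Per the submitters' processing notes and the study's methods, the authors used cutadapt 3.4 for trimming, STAR 2.7.8a for alignment to GRCm38, and counted fragments on GENCODE genes with featureCounts (Subread 2.0.1) and deposited raw counts, with 0 columns left without a library here. Exon lengths and coordinates came from the same table, and the exons of other genes searched for overlaps from GENCODE M21 on GRCm38. Genotypes and replicate numbers came from the labels.

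Counts were filtered with filterByExpr and scaled with TMM factors using edgeR 4.0.16 (R 4.3.3, limma 3.58.1). The quasi-likelihood model took genotype as its only term over 18 libraries (glmQLFTest for any amount, glmTreat against 1 log2 unit), with Benjamini-Hochberg adjusted p under 0.1. The scripts were tested on simulated data with changes put into KO. The test for any amount called 8 of 49 genes changed 1.5-fold, 31 of 47 changed 2-fold, 43 of 43 changed 3-fold and 58 of 61 changed 4-fold. A change of about 1.5-fold was thus mostly missed in the simulation, where 200 of 21058 genes were changed. In the data 3461 genes were called higher and 2836 lower in KO, which makes the cut on adjusted p less strict. The recovery in the simulation therefore does not give that of the data, where Kit was called at 1.58-fold and Id4 at 1.27-fold. A member that was not called may still differ. Totals of 18766971 to 26776555 counts per library put 3 counts at 0.112 to 0.160 CPM, and a member with few counts, such as Sohlh1, is correspondingly imprecise. The difference between a pair of libraries was the median over genes with at least 20 counts of the squared deviation, relative to counting noise, and pairs of a genotype under 4 were summed where close libraries are said to be summed. Genes most alike were found on log2 CPM with a prior count of 2.

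The members and lists were chosen with earlier results of these data known. Named genes were the members, Ddx25, in each list the 3 highest per kb and the 3 smallest adjusted p among those called in KO and in KI, and for each member the 3 most alike. Nanos2, Pax7, Eomes, Neurog3, Gdnf, Ret, Lhcgr, Spo11, Meiob and Nme8 lie outside this rule and were named after their values were seen. Lists covered spermatogonia, niche signals, spermatocytes, spermatids, Sertoli, Leydig, myoid, macrophage, endothelial and blood cells. Alternatives were DESeq2 1.42.0, its size factors, other filters, an adjusted p of 0.05, a model of only the genotypes compared, a replicate block, close libraries summed and each library left out. Levels of miRNAs were not analysed here. Figures were drawn with Python and matplotlib.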

Additional observations from a re-analysis of the deposited data

Results flagged for a closer look

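The level of Uchl1 in the library labelled KI 4 was 17.1 CPM, apart from the other KI libraries, of which the nearest was at 9.62 CPM. Its gap took 0.627 of the range of the 6 libraries, just above Dixon's critical value. It was the only flag in 24 groups of 6 libraries (8 genes in 3 genotypes), and chance flags about 1 group in 20. The library goes against its label by its Ddx25 level, and the cause was not tested.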

How the results depend on the processing

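The genes called higher in KO than WT numbered 1 without a filter on low counts and 5 with only the compared genotypes in the model. With close libraries summed, leaving 3 WT, 5 KO and 4 KI libraries, they numbered 1, also without the library labelled KI 4 (shares of all genes 8.11% and 7.94%). Leaving out single libraries gave 1 (without KO 3) to 4, and 2 in 10 of the 18 fits. The genes called higher in KI numbered 1 at an adjusted p of 0.05, 0 with close libraries summed, with or without the library labelled KI 4 (shares of all genes 7.02% and 5.32%), and 1 to 3 when single libraries were left out. They fell to 1 without WT 1, WT 2, WT 5, KI 1 or the library labelled KI 4. Without that library and KO 2 together, an alternative added after seeing the data, 1 gene was higher and 1, Uchl1, lower in KI. Of the other genes of undifferentiated spermatogonia, those higher in KO numbered 3 with close libraries summed and 2 also without the library labelled KI 4. Of the differentiation genes, those higher in KI numbered 2 in the latter fit. These 3 counts were also computed after seeing the data. DESeq2 on all 18 libraries called Zbtb16 higher in KO as well as Stra8, Kit and Id4. The share of all genes called was not computed for DESeq2, without the filter, with only the compared genotypes, or at an adjusted p of 0.05. Nor was it computed with a replicate block or without the library labelled KI 4 and KO 2 together. Of the fits without a single library, it was computed only for that without the library labelled KI 4.

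The replicate numbers did not pair the libraries. Deviations of same-numbered libraries from their genotype means correlated at -0.265 to 0.301 in KO and WT, -0.440 to 0.359 in KI and WT and -0.101 to 0.484 in KI and KO, and at most 3 of 6 pairs were above 0.1. With a replicate block 3 genes were called in KO and 2 in KI, and the value of Sohlh1 in KI reversed to -0.021.

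In KI compared to WT, Kit reversed to -0.073 without the library labelled KI 4 (range with single libraries left out -0.073 to 0.40), -0.052 with close libraries also summed and -0.0714 also without KO 2. Sohlh1 reversed without WT 4, KI 1, KI 2 or the library labelled KI 4 (range -0.28 to 0.24), to -0.32 with close libraries also summed and -0.28 also without KO 2. Dmrt1 reversed to 0.013 with only the compared genotypes, 0.099 with close libraries summed, and without WT 3, WT 4, WT 6, KI 3, KI 5 or KI 6 (range -0.32 to 0.10). In KI compared to KO, Zbtb16 reversed without KI 5 (range -0.34 to 0.017). None of these was called, and the causes were not tested. Of 223 recomputed values of the members per comparison, 192 kept direction and side of the threshold in KO, 192 in KI and 222 in KI compared to KO. Under 3 counts, or 0.160 CPM at most, a gene was not detectable.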

Other observations

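Of 16 spermatocyte genes, all tested, 4 were called higher and 2 lower in KO than WT, 3 higher and 3 lower in KI, and 2 higher and 2 lower in KI without the library labelled KI 4. Beside these and the spermatid counts below, 16.4% of all genes were called higher and 13.5% lower in KO, and 16.1% and 15.4% in KI. The spermatocyte counts in KI were near these shares. Pou5f2, a germ cell transcription factor gene, rose from 14.3 ± 3.04 CPM to 34.2 ± 7.97 in KO and 28.8 ± 7.67 in KI (SD, n = 6; adjusted p = 3.04e-05 and 0.000290, edgeR). Sycp3, of the synaptonemal complex, had log2 fold changes of 0.74 and 0.75 (adjusted p = 0.000689 and 0.000559, edgeR), and the recombinase gene Dmc1 0.82 and 0.50 (adjusted p = 0.00387 and 0.0667, edgeR), the latter not called without the library labelled KI 4. Syce3, also of the synaptonemal complex, was lower in KI, with -0.66 against -0.34 in KO (adjusted p = 0.0074 and 0.178, edgeR). Spo11, the gene of the enzyme that makes meiotic breaks, was lower in both (-0.45 and -0.37), Meiob was lower in KO (-0.46), and Nme8 was lower in KI (-0.77), but not without the library labelled KI 4. Sycp2, Piwil1 and Ccna1, the 3 most abundant per kb, did not pass. The summed spermatocyte level was highest in KI 3 and KI 5, at 2058 and 2044 CPM, the libraries in which the members other than Id4 summed lowest. Of 12 RS genes, 0 were higher and 3 lower in KO and 0 higher and 7 lower in KI. Hspa1l (-1.91 and -2.07), Lyzl1 (-0.77 and -1.21) and Catsper3 (-0.53 and -0.75) were lower in both, Tex36 in KI (-0.50), and Spata16 and Acr were not called. All 8 genes of elongating spermatids were lower in both, Prm2 with log2 fold changes of -3.36 and -3.53 (adjusted p = 3.11e-10 and 1.31e-10, edgeR), Prm1 with -2.59 and -2.75, Tnp1 with -1.78 and -1.89 and Tnp2 with -2.13 and -2.29.

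The other somatic lists are short, and 16.4% of all genes were called higher and 13.5% lower in KO, and 16.1% and 15.4% in KI. In these lists, 4 of 5 myoid genes were tested, with 2 higher and 1 lower in KO and 1 higher and 1 lower in KI. Cnn1 was higher in both (2.43 and 1.76) and Myh11 lower (-1.54 and -1.73), Acta2 was higher in KO (0.87), and Tagln was not called. Of 6 macrophage genes 1 was higher and 1 lower in each, Csf1r and C1qb (-1.20 and -0.96), and Cd74 and Cd68 were not called. Of 5 endothelial genes 2 were higher in KO and 1 in KI, Vwf among both (0.85 and 0.82, adjusted p = 0.000255 and 0.000324, edgeR) and Tie1 in KO (1.49), and Cdh5 and Kdr were not called. Of 4 blood genes only Hbb-bs was tested, not Hba-a1 or Hba-a2, with log2 fold changes of 0.02 and 0.75 (adjusted p = 0.976 and 0.0813, edgeR), the latter not called without the library labelled KI 4.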
